A study of Mus musculus with 12 samples.

Results

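The regions described here are the strongest H2A.Z peaks in the nucleus accumbens of mice with a cocaine history. They are every row with an authors' fold enrichment of at least 7 in the peak lists of the cocaine then cocaine condition (CC, labelled challenge) and the cocaine then saline condition (CS, labelled withdrawal), on all sequences including unplaced scaffolds and the mitochondrial genome. That rule gave 242 of 4827 CC peaks (5.01%) and 243 of 6417 CS peaks (3.79%), or 485 of the 59069 peaks in all 4 lists. The other conditions were saline then cocaine (SC, labelled acute) and saline then saline (SS), the reference without cocaine. Chromatin came from nucleus accumbens tissue, a ventral striatal part of the reward circuit, and was immunoprecipitated with an H2A.Z antibody in 3 samples per condition, 12 in all. The labels used here give no dose, interval, age, sex, strain or batch, and name no cell sorting.

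Each condition is represented by 1 peak list without values per sample, so values come without a spread between samples, and no comparison between conditions was tested. Intervals are 95% exact binomial (Clopper-Pearson) intervals and cover the counting of peaks only. Read depth was not analysed here. The fold enrichment is the authors' ratio of signal to background at each peak. The members were chosen by it, so it is given as a description, and it ranks peaks within a list and does not measure change between lists. Of 10 genes typical of medium spiny neurons, the main cell type of this tissue, a peak within 1000 bp of the start site was listed at 0 in CC, 0 in CS, 7 in SC and 9 in SS, and none was among the members. The CC and CS lists are far shorter, with 4827 and 6417 peaks against 23170 in SC and 24655 in SS. Fewer genes of any kind can therefore be listed there. Only 48 CC and 41 CS members lay within 1000 bp of any start site. The share over all genes was not computed, so these counts are not a result about these 10 genes.

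H2A.Z, a histone variant, replaces ordinary H2A in nucleosomes beside the transcription start sites of genes, where it marks promoters that are active or poised. A promoter is therefore the usual place for a strong H2A.Z peak. In sequencing of immunoprecipitated chromatin, a strong signal can also arise where many near-identical copies of a sequence are represented by fewer copies in the assembly, as in satellite arrays near centromeres, ribosomal RNA gene fragments and unplaced scaffolds. Mouse chromosomes carry such arrays at their acrocentric end, which is where the assembly's numbering begins.

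Few of the members could be shown as sequence, because few of them reach a promoter window of 300 bases in the RefSeq table (build GRCm38.p6, the same assembly as mm10). The start sites of the windows often differ from those the authors used. Among 13797 SS peaks whose gene has a window, they were equal for 23.8%. A window overlap and the authors' promoter class thus need not refer to the same start site. Of the CC members 9 (3.72%) overlapped a window, against 21.2% of the rest of the CC list, and of the CS members 5 (2.06%), against 22.8% of the rest of the CS list. The windows of Zfp644 and Gm52610 are shown because they are those covered over most of their length by a member, both in CS. Zfp644 encodes a zinc finger protein, and the member on the Gm52610 window was assigned by the authors to its neighbour Zfp697, another zinc finger gene on the opposite strand. The Chid1 window shows a CC member near the start site of a gene for a chitinase-domain protein. The authors put the middle of that member at -113 bp from the start site they used. Letters run 5′ to 3′ on the gene's strand, and capitals mark the bases inside the member, whose boundary may be off by 1 base because the lists do not state whether positions count from 0 or 1.
Zfp644, chr5:106696781-106697080, minus strand: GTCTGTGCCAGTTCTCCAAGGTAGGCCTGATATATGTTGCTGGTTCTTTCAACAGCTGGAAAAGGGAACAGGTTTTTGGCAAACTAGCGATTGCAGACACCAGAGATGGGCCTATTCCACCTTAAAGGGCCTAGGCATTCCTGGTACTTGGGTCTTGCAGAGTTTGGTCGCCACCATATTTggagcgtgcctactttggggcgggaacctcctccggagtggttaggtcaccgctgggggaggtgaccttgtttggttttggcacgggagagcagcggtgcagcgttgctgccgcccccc
Gm52610, chr3:98382463-98382762, minus strand: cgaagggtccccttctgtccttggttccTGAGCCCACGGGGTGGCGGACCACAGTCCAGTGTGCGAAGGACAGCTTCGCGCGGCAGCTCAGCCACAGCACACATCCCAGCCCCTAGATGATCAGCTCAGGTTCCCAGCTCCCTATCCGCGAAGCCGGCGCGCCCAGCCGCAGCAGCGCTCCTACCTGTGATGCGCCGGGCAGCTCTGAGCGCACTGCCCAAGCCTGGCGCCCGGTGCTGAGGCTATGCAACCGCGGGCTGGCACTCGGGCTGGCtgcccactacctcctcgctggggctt
Chid1, chr7:141539651-141539950, minus strand: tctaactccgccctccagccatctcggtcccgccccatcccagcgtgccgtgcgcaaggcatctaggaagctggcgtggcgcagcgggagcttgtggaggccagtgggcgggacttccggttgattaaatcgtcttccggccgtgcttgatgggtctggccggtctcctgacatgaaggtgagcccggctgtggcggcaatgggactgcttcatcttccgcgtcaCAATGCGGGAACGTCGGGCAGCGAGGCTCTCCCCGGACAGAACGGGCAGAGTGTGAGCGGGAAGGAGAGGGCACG

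These windows hold 10 CG dinucleotides in Zfp644, 23 in Gm52610 and 27 in Chid1. The median was 13 for windows under CC members and 19 under CS members, against 21 under the rest of either list and 7 over all 32851 windows of the table. None of the 3 shared a run of 25 letters with the window of another gene, on either strand. The windows of Gm14325 and Gm32856, both under CC members, are shown because they did. Gm14325 shared such runs with the windows of 31 other genes and Gm32856 with those of 9, among them A630089N07Rik, AB010352 and B230307C23Rik. In all 3 of 9 genes with a window under a CC member shared a run (33.3%, 7.49 to 70.1%), against 4.6% of 1000 genes in the rest of the CC list, and 0 of 6 genes did in CS (upper bound 45.9%), against 5.52% of 1431 genes in the rest of the CS list. The 3 genes were Gm14325, Gm32856 and AW146154. The last of these shared only 2 such runs, with 1 other gene, Zfp933. Over all windows, 15.5% shared a run.
Gm14325, chr2:177840287-177840586, minus strand: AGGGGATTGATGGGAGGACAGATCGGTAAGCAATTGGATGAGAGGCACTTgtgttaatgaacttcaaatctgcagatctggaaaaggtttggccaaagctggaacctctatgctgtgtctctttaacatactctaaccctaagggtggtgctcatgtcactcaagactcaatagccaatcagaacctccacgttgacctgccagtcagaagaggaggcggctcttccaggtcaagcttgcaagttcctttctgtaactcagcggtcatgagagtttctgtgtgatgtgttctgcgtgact
Gm32856, chr8:129263363-129263662, plus strand: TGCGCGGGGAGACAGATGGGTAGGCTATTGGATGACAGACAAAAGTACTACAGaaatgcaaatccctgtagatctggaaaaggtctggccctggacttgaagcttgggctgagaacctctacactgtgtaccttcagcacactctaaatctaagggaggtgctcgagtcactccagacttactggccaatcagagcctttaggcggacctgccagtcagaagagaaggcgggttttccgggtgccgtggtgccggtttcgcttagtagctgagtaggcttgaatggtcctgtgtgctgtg

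The window of the non-coding gene Gm15564 is shown because it is the one touched by the strongest member of any window, with a fold enrichment of 26.3 in CC and 24.4 in CS. The member touches it only with its last bases, and most of the CS member (chr16:35981691-35981807) lies downstream of the window. The authors put its middle at -607 bp in CC and -608 bp in CS, upstream of the start site they used. That start site is therefore not the one of this window. The microRNA gene Mir6236 also held a member in both lists (fold enrichment 8.70 each), which ended 15 bases in CC and 11 bases in CS before the mature microRNA. Its seed, bases 2 to 8, is in capitals. Genome sequence at the other members was not analysed here.
Gm15564, chr16:35981800-35982099, minus strand: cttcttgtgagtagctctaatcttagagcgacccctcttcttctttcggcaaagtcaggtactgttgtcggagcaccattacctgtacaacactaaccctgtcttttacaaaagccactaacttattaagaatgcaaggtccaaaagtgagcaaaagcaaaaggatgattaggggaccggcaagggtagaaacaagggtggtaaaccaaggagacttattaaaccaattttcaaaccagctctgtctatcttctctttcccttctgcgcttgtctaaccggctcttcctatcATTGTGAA
mmu-miR-6236, chr9:110281353-110281371, plus strand: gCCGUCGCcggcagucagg

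A fold enrichment of 7 was rare in the lists with a cocaine history and common in those without one. It was passed by 5.01% of CC and 3.79% of CS peaks but by 29.0% of SC peaks (6723) and 22.2% of SS peaks (5462), although the median fold enrichment of the lists was alike (4.80 in CC, 4.68 in CS, 4.66 in SC and 4.34 in SS). The upper end was longer in the lists with a cocaine history. The highest values were 36.7 in CC, 35.5 in CS, 20.8 in SC and 16.8 in SS. Members were short, with a median width of 106 bp in CC and 108 bp in CS, close to those of the whole lists (107 bp and 110 bp), while SC and SS peaks of that fold had medians of 978 bp and 1080 bp.

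Members mostly lay away from promoters. Within 1000 bp of a start site lay 48 CC members (19.8%, 15.0 to 25.4%), against 83.7% of the rest of the CC list and 80.5% of the whole list. In CS it was 41 members (16.9%, 12.4 to 22.2%), against 82.0% of the rest and 79.5% of the whole list. In SC and SS the peaks of the same fold were mostly promoter peaks, at 92.4% and 93.5%. The promoter share was low at both ends of the CC and CS lists and high at the upper end of SC and SS. In CC it was 16.8% below a fold of 3, 86.4% at 4 to 5, 77.6% at 6 to 7, 32.0% at 7 to 8 and 10.0% at 20 or more. In CS the same steps gave 14.0%, 83.1%, 69.9%, 29.4% and 6.45%. In SC it was 30.6% below 3, 63.7% at 4 to 5 and 93.3% at 10 to 15, and in SS 32.5%, 67.5% and 93.8%. Just inside the threshold, at folds of 7 to 7.5, 33.3% of 48 CC and 29.8% of 47 CS peaks were promoter peaks, and just outside it, at 6.5 to 7, 66.2% of 80 CC and 57.6% of 59 CS peaks.

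**Figure D1:**
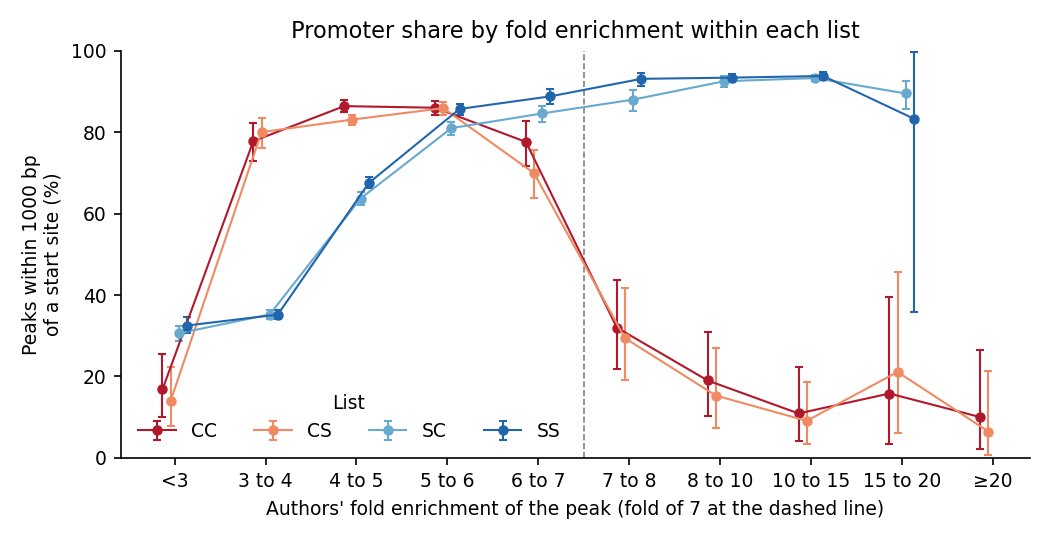
Share of peaks within 1000 bp of a start site (vertical axis, %) in groups of fold enrichment (horizontal axis), for the CC, CS, SC and SS lists, with 95% exact binomial intervals; groups of under 5 peaks are not drawn. Right of the dashed line at 7 the CC and CS shares are 32.0% or lower, and the SC and SS shares are 83.3% or higher.

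By the authors' region classes, gene bodies held 55 CC members (22.7%, against 3.56% of the rest and 4.52% of the list) and 57 CS members (23.5%, against 4.39% and 5.11%). Sequence 1 to 3 kb from a start site held 27 in CC (11.2%, against 2.81% and 3.23%) and 29 in CS (11.9%, against 2.62% and 2.98%). Intergenic sequence held 96 in CC (39.7%, against 9.92% and 11.4%) and 98 in CS (40.3%, against 10.9% and 12.0%). The class named subtelomere was the most one-sided: 16 of its 18 CC peaks were members (6.61% of members, 0.373% of the list), as were 18 of its 26 CS peaks (7.41% of members, 0.405% of the list). No gene was assigned to 112 CC members (46.3%, list 11.8%) and 116 CS members (47.7%, list 12.4%), and a protein-coding gene to 96 (39.7%, list 79.0%) and 90 (37.0%, list 77.8%).

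Each member was then placed in 1 of 6 position classes, a scheme chosen after the values were seen. Unplaced scaffolds and an assembly patch held 20 CC members (8.26%, list 2.73%) and 21 CS members (8.64%, list 2.13%), where the list shares also count mitochondrial peaks. The first 3.5 Mb of a numbered chromosome held 54 in CC (22.3%, list 2.67%) and 54 in CS (22.2%, list 2.06%). No peak of any list began before base 2999852 on the numbered chromosomes or X. Most of these members lay on chromosome 11 (30 in CC and 28 in CS) and chromosome 9 (11 in each list). Of the others, 41 CC and 56 CS members had another member of the same list within 10 kb. The remaining single members were 31 at promoters, 40 in promoter flanks or gene bodies and 56 in intergenic sequence in CC, and 22, 40 and 50 in CS. Scaffolds, chromosome starts and clusters together made up 115 CC members (47.5%) and 131 CS members (53.9%). A measure that makes no use of clustering, lying on a scaffold, mitochondrial DNA, a chromosome start, the subtelomere class or chromosome Y, applied to 92 CC members (38.0%), against 4.14% of the rest and 5.84% of the list, and to 96 CS members (39.5%), against 3.34% and 4.71%. Chromosome Y alone held 7 members among its 8 CC peaks (list 0.166%) and 9 among its 13 CS peaks (list 0.203%).

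**Figure D2:**
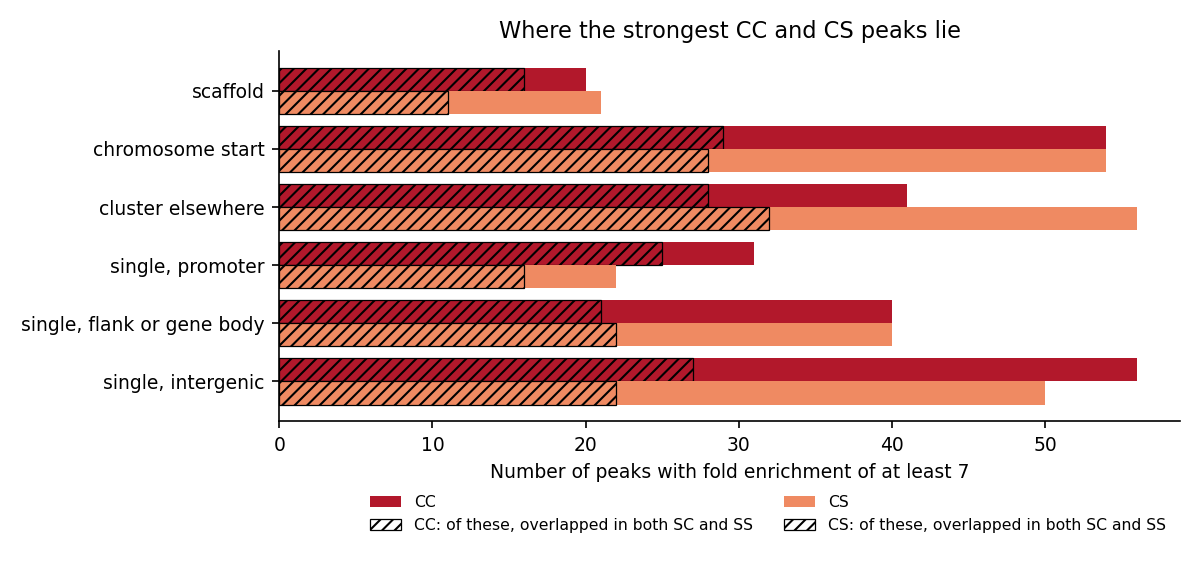
Number of peaks with a fold enrichment of at least 7 (horizontal axis) in each position class (rows) for CC and CS; hatching marks those overlapped by a peak in both SC and SS. Chromosome starts hold 54 members in each list, of which 29 in CC and 28 in CS are overlapped in both.

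None of the members was mitochondrial. Mitochondrial DNA carried 14 peaks in CC (0.29% of the list) and 14 in CS (0.218%), with fold enrichments of 1.86 to 2.58 and 1.96 to 2.40. The scaffold JH584304.1 carried 96 CC and 95 CS peaks, of which 9 (list 1.99%) and 7 (list 1.48%) were members, and it carried 26 SC and 30 SS peaks, of which none reached 7. Its highest fold enrichment was 14.8 in CC, 16.5 in CS, 5.27 in SC and 6.10 in SS. Its median was 2.48 in CC, 2.47 in CS, 2.04 in SC and 1.94 in SS, below the median of each list. The strongest scaffold member, on GL456396.1 at bases 11921 to 12144, had 28.5 in CC, 28.5 in CS, 5.95 in SC and 8.38 in SS.

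The strongest members came from several position classes, with single peaks in intergenic sequence and in gene bodies among them. The highest in both lists was an intergenic peak without an assigned gene at chr6:49236455-49236580, with a fold enrichment of 36.7 in CC, 35.5 in CS, 11.0 in SC and 12.9 in SS. Another without a gene lay at chrX:143483005-143483118, with 34.8 in CC, 32.8 in CS, 9.80 in SC and 10.3 in SS. A further one lay at chr2:3964490-3964617, with 33.3 in CC, 31.6 in CS, 9.12 in SC and 9.57 in SS. All 3 were also peaks in the lists without a cocaine history, and there they were above 7 as well.

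Within gene bodies, the strongest members lay at varied distances from the start site. The member of Chl1, a neural cell adhesion molecule of the L1 family, lay 137842 bp downstream of the start site (chr6:103649052-103649291) and had 33.0 in CC, 30.9 in CS, 13.7 in SC and 14.1 in SS. That of Cldn34d, of the claudin family of tight junction proteins, lay 3922 bp downstream (chrX:76598874-76599131) with 34.7 in CC, 31.9 in CS, 15.6 in SC and 14.2 in SS. Lars2, the mitochondrial leucyl-tRNA synthetase gene, held one at chr9:123461920-123462182 with 30.3 in CC, 30.8 in CS, 10.3 in SC and 13.7 in SS. Those of Filip1l (28.5 in CC, 26.7 in CS, 13.1 in SC and 13.5 in SS) and Fbxw4, an F-box gene (28.3 in CC, 30.4 in CS, 9.12 in SC and 8.90 in SS), followed. In these 5 genes every list had a peak with a fold enrichment above 8.

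Other gene body members lay in genes of varied function. Camk1d, a calcium and calmodulin-dependent kinase gene, held a member 296729 bp into the gene (chr2:5379269-5379369) with 24.3 in CC, 22.1 in CS, 7.38 in SC and 7.74 in SS. Cdk8, the kinase of the Mediator complex, held one at chr5:146260997-146261348 with 25.6 in CC, 23.2 in CS, 12.9 in SC and 15.7 in SS. Jarid2, a cofactor of Polycomb repressive complex PRC2, held its strongest at chr13:44869575-44869676 with 21.4 in CC, 20.7 in CS, 7.68 in SC and 7.55 in SS. The SC and SS values of Camk1d and Jarid2 lay just above 7.

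Gphn, which encodes gephyrin, the scaffold of inhibitory synapses, had a member at chr12:78350920-78351015 with 17.0 in CC, 17.1 in CS, 5.92 in SC and 5.90 in SS. Kctd16, an auxiliary subunit of GABA-B receptors, had 17.5 in CC, 15.1 in CS, 6.16 in SC and 6.70 in SS. Nkain3, of a family of proteins that bind the sodium pump, had 14.9 in CC, 15.4 in CS, 5.63 in SC and 4.93 in SS. At these 3 genes the SC and SS peaks stayed below 7. Cdk5rap2, a centrosome gene, had 23.2 in CC, 24.8 in CS, 9.72 in SC and 9.19 in SS. The cytokine receptor gene Il31ra had 22.8 in CC, 20.5 in CS, 8.24 in SC and 7.24 in SS. Its member was classed as promoter flank, 1 to 3 kb from the start site, and not as gene body.

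Among the weaker gene body members some had no peak in SC or SS. Lama1, a laminin chain gene, had 13.1 in CC, 12.4 in CS, 6.21 in SC and 5.51 in SS. Hira, the chaperone gene for histone H3.3, had 9.79 in CC and 11.0 in CS, and Efna5, an axon guidance ligand gene, had 9.43 in CC and 9.37 in CS, both with no peak in SC or SS. Flt1, a receptor gene for vascular endothelial growth factor, had 7.98 in CC, 9.03 in CS, 5.24 in SC and 4.74 in SS. Dlgap2, a postsynaptic scaffold gene, had 7.61 in CC, 7.03 in CS, 6.45 in SC and 3.97 in SS. A peak inside a gene is assigned by the authors to that gene, and no promoter of these genes was a member.

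Clusters of members were frequent. In CC 28 clusters of members within 10 kb of each other held 103 members (42.6%), against 32.4% of all CC peaks with another peak in that distance. In CS 34 clusters held 119 members (49.0%), against 36.3% of all CS peaks. The denominators differ, since members are fewer and lie farther apart by number alone. Of these clusters 13 in CC and 17 in CS held 3 or more members, and the largest held 19 and 18.

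The largest run was at the start of chromosome 11. Between 3126941 and 3180002, a stretch of 53061 bp, lay 36 CC peaks, of which 30 were members, and 35 CS peaks, of which 28 were members. The same stretch held 9 SC peaks, none of which reached 7, and 13 SS peaks, of which 1 did (7.65). Most members there, 25 in CC and 23 in CS, were assigned to Sfi1, which encodes a centrin-binding protein of the centrosome, and the others to the pseudogenes Pisd-ps1 (2 in each list) and Gm11400 (1 in each) and to Gm11399 (2 in each). All of them share a single neighbourhood, so they are not separate findings about Sfi1.

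Fold enrichments in the run were 4.90 to 21.6 in CC (median 8.75), 5.40 to 18.2 in CS (9.96), 2.71 to 5.57 in SC (4.18) and 2.94 to 7.65 in SS (4.61). The strongest peak, at chr11:3141291-3141410 and assigned to Gm11399, had 21.6 in CC, 18.2 in CS, 4.18 in SC and 5.22 in SS. Within Sfi1 itself the strongest, at chr11:3132351-3132466, had 18.1 in CC, 16.8 in CS, 5.57 in SC and 7.65 in SS. The peaks were narrow in CC and CS (median 94 bp and 99 bp) and wide in SC and SS (493 bp and 503 bp). They covered 3547 bp in CC, 3739 bp in CS, 4439 bp in SC and 6568 bp in SS, so the larger numbers in CC and CS go with narrower pieces and not with more sequence covered. Neighbouring members lay a median of 1110 bp apart in CC and 1060 bp in CS. Of the 30 CC members 27 overlapped a CS member, 15 an SC peak and 18 an SS peak. Of the 28 CS members 27 overlapped a CC member, 14 an SC peak and 17 an SS peak. Beyond the run, other Sfi1 peaks (11 in CC, 8 in CS, 3 in SC and 4 in SS) reached at most 4.30 in CC, 4.47 in CS, 1.90 in SC and 2.07 in SS, and none of them was a member.

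**Figure D3:**
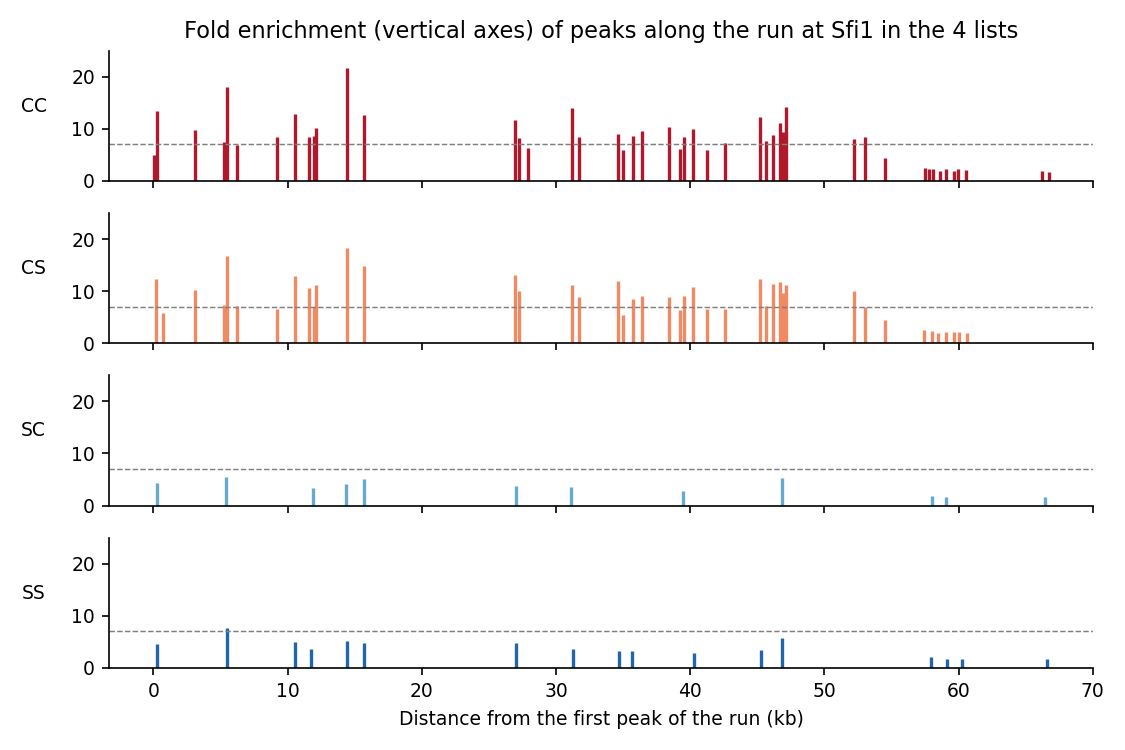
Fold enrichment (vertical axis of each panel) of every peak along the run at the start of chromosome 11, and of the Sfi1 peaks just beyond it, against distance in kb from the first peak of the run (horizontal axis), in CC, CS, SC and SS from top to bottom; the dashed line is at 7. Most CC and CS lines within the run stand at like distances, with 21.6 in CC and 18.2 in CS the highest, the SC lines stay at 5.57 or lower, and 1 SS line reaches 7.65.

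A run of a second kind began chromosome 9. The first 3.5 Mb held 42 CC, 40 CS, 18 SC and 19 SS peaks, and 11 CC and 11 CS but no SC or SS peaks reached 7. The highest was 15.4 in CC, 15.4 in CS, 5.56 in SC and 5.93 in SS. In each list 10 of the 11 carried the gene names Gm10717, Gm10720, Gm10722, Gm11168 and Gm26870, with Gm10721 added in CS, and 1 had no gene. The members with these gene names had q-values that were extreme for their folds. That of Gm10717 at chr9:3025450-3025598 had a fold enrichment of 7.87 and −log10 q of 62.8 in CC and 7.15 and 58.5 in CS. Its fold enrichments were 1.86 in SC and 2.07 in SS. The member without a gene, at chr9:3258841-3258917, had 10.5 and −log10 q of 19.0 in CC. An intergenic CC member on chromosome 3 had the same values. By comparison the promoter member of Zfp644 in CS had a fold enrichment of 7.10 and −log10 q of 9.54.

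Other chromosome starts held few members, some of them strong. One at chr6:3201427-3201565 had 30.9 in CC, 28.5 in CS, 10.6 in SC and 10.3 in SS. One at chr12:3109870-3110118 had 29.3 in CC, 28.4 in CS, 13.1 in SC and 13.1 in SS. One at chr2:3050130-3050348 had 18.5 in CC, 23.1 in CS, 9.51 in SC and 8.42 in SS. Chromosomes 13, 16 and 17 had 2 to 4 members each at their starts, among them a pair at the pseudogene Pisd-ps2 in both lists. Some of these lay near the threshold, such as one at chr13:3037171-3037302 with 7.25 in CC, 7.03 in CS and no SC or SS peak. Chromosomes 1, 3, 7 and X carried no peak of any list there.

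Away from chromosome starts the clusters formed at 10 kb were smaller. That limit split a looser group on chromosome 8, between 19728000 and 20678617, into small clusters and single members. It included members at Gm10060, Gm21769, 6820431F20Rik, Gm26804 and 2610005L07Rik and others without a gene. Chromosome 8 as a whole held 19 CC and 20 CS members. E030030I06Rik on chromosome 10 held 3 members in CC (13.8 to 23.7) and 3 in CS (13.4 to 23.6) within 641 bp in CC and 635 bp in CS, all over a single SC peak of 10.8 and a single SS peak of 10.2. Tcte2, a gene of the t-complex on chromosome 17, held 3 in CC (9.79 to 12.8) and 3 in CS (9.94 to 13.0), each overlapped in SC and SS. Zfp600, a zinc finger gene on chromosome 4, held 2 in CC (7.23 to 7.48) and 5 in CS (7.28 to 9.03). Apool, a gene of the mitochondrial cristae complex on chromosome X, held 2 in CC (up to 18.9) and 3 in CS (up to 17.7), over an SC peak of 5.92 and an SS peak of 8.32. In E030030I06Rik and Apool, several narrow CC and CS peaks stood where SC and SS had 1 wide peak.

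Single promoter members of protein-coding genes had low folds among the members. Among the 31 single promoter members of CC, 17 belonged to protein-coding genes and had folds of 7.11 to 9.06, and 16 of the 17 were overlapped in both SC and SS. In CS 11 of 22 did, with folds of 7.0 to 8.36, and 8 of the 11 were overlapped in both. Examples in CC were Ipo9, an importin gene (7.25 in CC, 4.95 in SC and 5.13 in SS, no CS peak), Tmem267 (7.32 in CC, 6.79 in CS, 12.1 in SC and 10.4 in SS) and Trmu, a mitochondrial tRNA modification gene (7.25 in CC, 5.35 in CS, 5.58 in SC and 6.86 in SS). Examples in CS were Zfp644 (5.51 in CC, 7.10 in CS, 9.42 in SC and 7.95 in SS), Zfp697 (4.45 in CC, 7.10 in CS, 5.30 in SC and 6.44 in SS) and Asmt, the gene of the last step of melatonin synthesis (5.80 in CC, 7.70 in CS, no peak in SC or SS). Phf21a, which encodes a subunit of a histone demethylase complex, was the protein-coding gene with a single promoter member in both lists, at 9.06 in CC, 8.36 in CS, no peak in SC and 3.77 in SS. All of these folds lay close to the threshold, and of the genes named here Phf21a and Asmt lacked an SC peak.

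Promoter members were also found at non-coding genes, over a wider range of folds. Gm23935, which the authors type as a microRNA gene, had 32.6 in CC, 31.4 in CS, 14.2 in SC and 16.8 in SS (chr16:11144033-11144309), and its SS value was the highest of the SS list. Gm15564, shown above, had 26.3 in CC, 24.4 in CS, no peak in SC and 3.92 in SS. Gm8357 had 16.5 in CC, 16.4 in CS, 8.24 in SC and 5.71 in SS. Gm27940 had 16.0 in CC, 16.0 in CS, 8.83 in SC and 10.2 in SS. Snord37, a small nucleolar RNA gene, had 8.57 in CC, 9.71 in CS and no peak in SC or SS, with its middle at -766 bp in CC and -763 bp in CS from the start site. Mir6236 had 8.70 in CC, 8.70 in CS, 3.87 in SC and 3.76 in SS.

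The lists of CC and CS held largely the same strong places. Of the CC members 180 (74.4%) overlapped a CS member, against 4.14% of all CC peaks, and 215 (88.8%) overlapped any CS peak, against 33.4%. Of the CS members 179 (73.7%) overlapped a CC member, against 3.35% of all CS peaks, and 198 (81.5%) overlapped any CC peak, against 25.2%. Merged, the members formed 303 places, 177 of them with a member in both lists, 62 in CC alone and 64 in CS alone. Of the 30 strongest places of each list 28 were shared. Where members overlapped, they lay at nearly the same bases: the middles of the 182 overlapping pairs were a median of 2.5 bp apart, and 80.2% lay within 10 bp. Among the 1418 overlapping pairs of weaker CC and CS peaks the median was 53.0 bp, and 14.2% lay within 10 bp.

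Places with a member in 1 list alone sat near the threshold. The 62 in CC alone had a median fold of 7.25 and at most 11.2, and 35 of them carried a weaker CS peak. The 64 in CS alone had a median of 7.70 and at most 10.4, and 19 carried a weaker CC peak. Shared places had medians of 11.0 in CC and 11.5 in CS. Promoters made up 21 of the 62 and 14 of the 64, against 27 of the 177 shared places. With 1 list per condition, a difference between CC and CS at these places cannot be told apart from variation between lists.

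**Figure D4:**
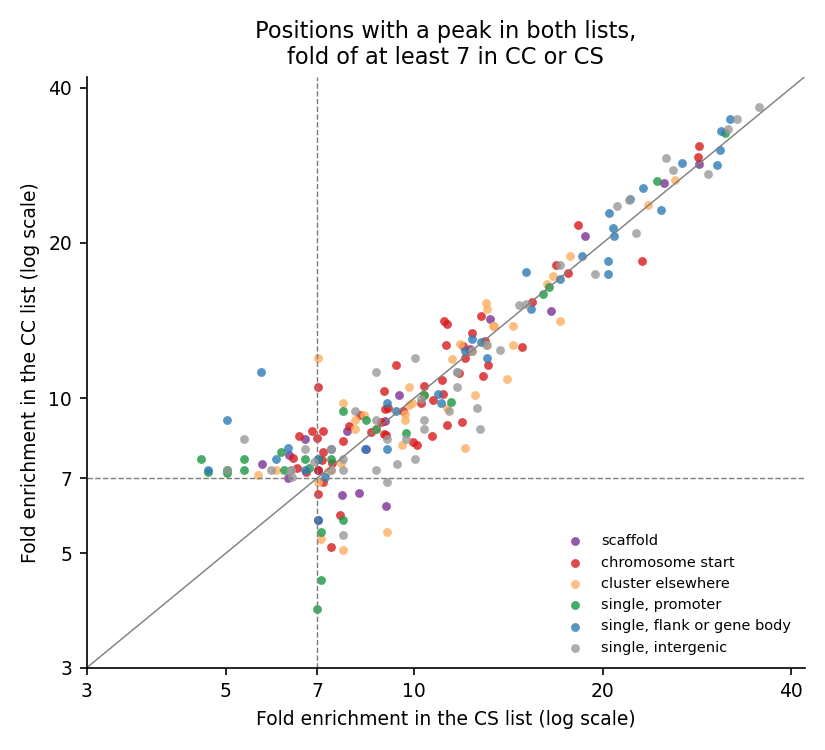
Fold enrichment in CC (vertical axis, log scale) against CS (horizontal axis, log scale) for each place with a peak in both lists and a member in at least 1, coloured by position class; dashed lines are at 7 and the solid line marks equal values. Points far above 7 lie near the solid line, up to the place with 36.7 in CC and 35.5 in CS.

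Overlap with the lists without a cocaine history was lower for members than for the lists they came from, and depended on strength. SC peaks overlapped 161 CC members (66.5%, 60.2 to 72.4%), against 89.3% of the rest and 88.2% of the list, and 153 CS members (63.0%, 56.6 to 69.0%), against 87.7% and 86.8%. SS peaks overlapped 166 CC members (68.6%, 62.3 to 74.4%), against 94.2% of the rest and 92.9% of the list, and 149 CS members (61.3%, 54.9 to 67.5%), against 93.5% and 92.3%. Both SC and SS overlapped 146 CC members (60.3%, list 86.7%) and 131 CS members (53.9%, list 85.3%). An SC peak of at least 7 overlapped 60 CC members (24.8%, list 35.6%) and 59 CS members (24.3%, list 31.7%), and such an SS peak 57 CC members (23.6%, list 29.6%) and 56 CS members (23.0%, list 27.5%). Neither SC nor SS overlapped 61 CC members (25.2%, list 5.61%) and 72 CS members (29.6%, list 6.22%). The SC and SS peaks are several times wider than the members, which makes an overlap easier in this direction.

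The members without a peak in SC or SS were mostly the weaker ones. At folds of 7 to 8, both SC and SS overlapped 37 of 75 CC members (49.3%) and 23 of 68 CS members (33.8%). At 15 or more they overlapped 48 of 49 CC members (98.0%) and 49 of 50 CS members (98.0%), and the exception in each was Gm15564, which SS alone overlapped. The places at 15 or more in both CC and CS numbered 47. At these, SC had a median fold of 9.26 (4.18 to 16.4 at the 46 with a peak) and SS one of 8.61 (3.92 to 16.8), and 35 reached 7 in SC and 35 in SS. Only 6 of the 47 were promoter peaks, while 17 lay in gene bodies, 3 in promoter flanks and 21 in intergenic sequence or the subtelomere class.

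Read from the other side, members lay on few of the strong peaks present without a cocaine history, and mostly on those away from promoters. Of the 514 SC peaks of at least 7 that lay more than 1000 bp from a start site or had none, 38 carried a CC member (7.39%, 5.28 to 10.0%) and 37 a CS member (7.20%, 5.12 to 9.79%). Of the 6209 such SC peaks at promoters 15 carried a CC member (0.242%, 0.135 to 0.398%) and 13 a CS member (0.209%, 0.112 to 0.358%). Of the 356 SS peaks away from promoters 36 carried a CC member (10.1%, 7.18 to 13.7%) and 36 a CS member (10.1%). Of the 5106 SS promoter peaks 11 carried a CC member (0.215%, 0.108 to 0.385%) and 10 a CS member (0.196%, 0.0940 to 0.360%). The share carrying any CC peak, member or not, was similar in both settings: 20.4% away from promoters and 22.0% at promoters for SC, and 23.9% and 22.3% for SS. For any CS peak it was 21.2% and 26.4% for SC, and 26.4% and 27.6% for SS. The strong promoter peaks of SC and SS that were still called in CC and CS were thus called there with folds below 7 in most cases.

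The q-value set members of equal fold apart. At folds of 7 to 8.5 the median −log10 q was 13.3 for scaffold members in CC and 8.98 in CS, 19.5 and 16.4 at chromosome starts, 10.6 and 11.0 in clusters elsewhere, 8.89 and 9.99 at single promoters, 9.93 and 9.99 in single flanks and gene bodies, and 9.38 and 11.0 in single intergenic members. Some members of scaffolds and chromosome starts stood above others of their fold, and most single promoter members followed the lower edge of the distribution. Number of reads per peak was not analysed here.

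**Figure D5:**
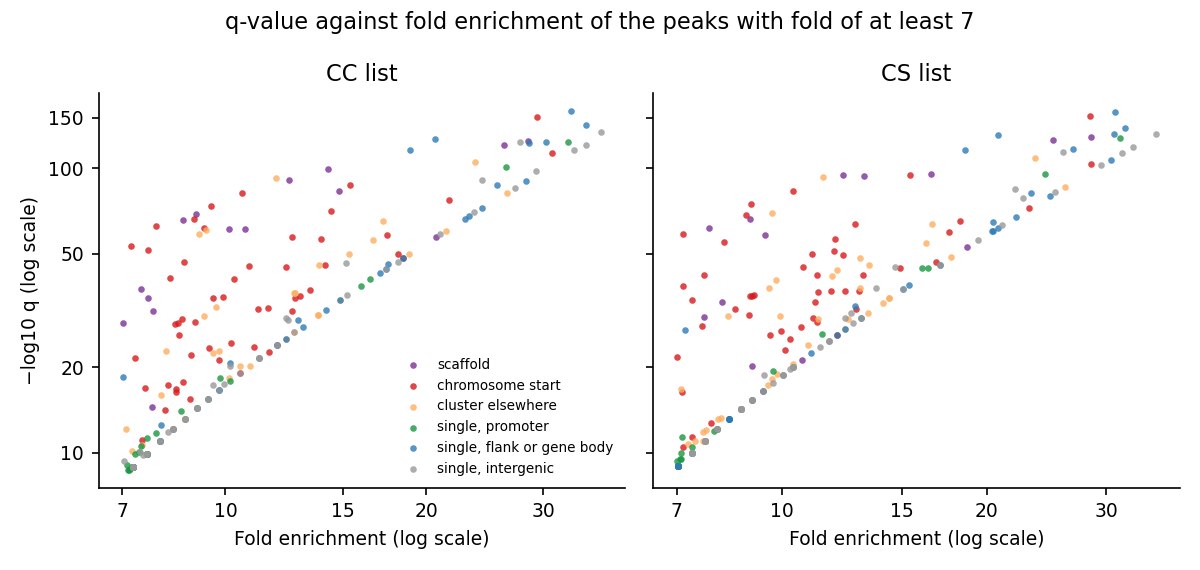
Minus log10 q (vertical axis, log scale) against fold enrichment (horizontal axis, log scale) of each member, in CC (left) and CS (right), coloured by position class. Many members share a lower edge that climbs with fold, scaffold members among them, while other points lie above it, such as the CC member of Gm10717 at a fold of 7.87 and −log10 q of 62.8.

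That lower edge was made of repeated values. In CC 95 members shared their fold enrichment with another member, and the most common value, 7.25, occurred 27 times. In CS 98 did, and the most common value, 7.03, occurred 20 times. All 18 shared values in CC and all 17 in CS came with a single q-value each. Steps of 0.363 in CC and 0.335 in CS accounted for 118 CC members (48.8%) and 125 CS members (51.4%) as whole multiples, within 0.02 of a step. For those members a difference in fold of 1 step is the smallest that the lists can show.

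Which members come from repeated or collapsed sequence could be read only in part. Scaffolds, chromosome starts and groups of neighbouring members, the 115 CC and 131 CS members counted above, include Sfi1 and Gm10717. The other 127 CC and 112 CS members lay outside scaffolds and chromosome starts and had no other member within 10 kb. They included the highest peak of both lists, at chr6:49236455-49236580, and strong ones at Chl1, Cldn34d, Camk1d and Cdk8. Some of them lay on chromosome Y or in the subtelomere class, and some belonged to the looser group on chromosome 8. Runs of letters shared with other genes were looked for only in promoter windows, where Gm14325, Gm32856 and, to a small extent, AW146154 had them. Whether the other members' sequences occur more than once in the genome was not tested, because no genome sequence was used here. The part of position in the high fold enrichments was not tested either.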

How the data were processed

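H2A.Z chromatin immunoprecipitation and sequencing covered 12 samples in 4 conditions of 3, each condition with 1 peak list deposited by the authors. The submitters' processing notes name the build mm10 and, as tools, MACS2, HISAT, SAMtools and cutadapt. Roles, versions, settings, control library and any pooling of samples were not given in the sources used here, so no spread between samples could be had. Fold enrichment is the authors' ratio of signal to background at a peak, per the file headers. The q-value of a peak is the authors' too, per the file headers, and is given here as −log10 of the deposited value. Region, gene and distance are the authors' annotation, and gene names on scaffolds are theirs.

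Members were rows with a fold enrichment of at least 7. The members, the threshold and the lists were chosen with earlier results of these data known. Python 3.11.15, pandas 2.3.3 and scipy 1.17.1 counted overlaps of at least 1 bp, clusters within 10 kb and intervals, and the counting was tested on simulated data. Genes named follow a rule: those assigned to the 15 strongest members of each list, to 2 or more members of a list or to members of both lists (60 genes), and examples of single promoter members and of sequences shown were chosen after their values were seen. Of 107 assigned names 89 (83.2%) matched RefSeq symbols (GRCm38.p6). No column (0) held samples of another series. A gene that the rule would name is not reported here.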

Additional observations from a re-analysis of the deposited data

How the results depend on the processing

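Fold thresholds of 6 and 10 changed the number and make-up of members. CC members numbered 483 at 6 and 104 at 10, and CS members 492 and 116. Their promoter shares were 48.7% and 11.5% in CC and 43.7% and 10.3% in CS. Overlap with SC was 76.0% and 85.6% in CC and 71.5% and 83.6% in CS, overlap with SS 77.4% and 85.6% in CC and 72.6% and 81.9% in CS, and the share in clusters 29.2% and 35.6% in CC and 32.7% and 34.5% in CS. Counting only SC and SS peaks of at least 7 gave overlaps of 24.8% with SC and 23.6% with SS in CC, and 24.3% and 23.0% in CS. Start-site distance of 500 bp gave 10.7% in CS. Neighbours within 1 kb put 31.8% of CC and 35.4% of CS members in clusters, and within 100 kb 49.2% in CC. The other 18 values, among them those without scaffolds and those asking for 50% of a member to be covered, moved by less than their intervals. No paired analysis was possible because the 3 samples of a condition stand behind a single list, and no replicate could be left out for the same reason. Depth and mappability were not analysed here.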
